A study of Homo sapiens with 28 samples.

Results

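The comparison described here is that of CHL-1 cells given 468 nM BAY1238097 for 4 h with CHL-1 cells given the solvent DMSO for 4 h. CHL-1 is an established human melanoma line, 1 line from 1 tumour, and BAY1238097 is an inhibitor of the BET bromodomains. The arrays were chosen by title: 5 carried the compound and 4 carried DMSO, which makes 9 of the 28 Affymetrix arrays in the series. All cells were kept in DMEM with fetal calf serum and plated 1 day before treatment, and 468 nM is the dose the submitters give as the IC90 of the compound. The other arrays held a lower dose of 75 nM (5 arrays at 4 h and 5 at 24 h) and the 24 h time point at 468 nM (5 arrays) and in DMSO (4 arrays); of these, 75 nM at 4 h and the 24 h groups at 468 nM and in DMSO serve below for comparison. The labels do not state that replicate arrays stem from independent cultures: the p-values then measure the spread between these samples alone, and that spread may be technical.

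BET proteins, among them BRD2 and BRD3, bind acetylated lysines on histones through paired bromodomains. The family is known for its ties to the kinase P-TEFb, which releases RNA polymerase II from its pause near the start of a gene, and genes that lie beside large clustered enhancers are known to be sensitive to BET inhibition. Many transcripts from such genes are short-lived, so a few hours of BET inhibition are a common time at which early changes are read, before changes in the cell cycle set in.

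The labelled cell type was set against marker genes. SOX10, a transcription factor of the neural crest and of melanocytes, had a mean log2 intensity of 9.61 ± 0.06 (SD, n = 4) in DMSO, and S100B, VIM, CSPG4 and MCAM were measurable too. The pigment genes PMEL, MLANA and TYR stood at 3.13, 1.90 and 1.30, and their regulator MITF at 2.67, where the median of all probe sets on an array was 2.44 to 2.49. These 4 genes did not pass the filter on dim genes. Of the marker lists of other cell types, 0 keratinocyte and 0 endothelial genes passed the filter on dim genes, with FBLN1 as the 1 fibroblast gene and CD68 as the 1 leukocyte gene. In DMSO at 4 h CD68 itself was dim, with a mean of 4.43. Of 10 listed markers each, 8 were read on the array for keratinocytes and for fibroblasts, 9 for leukocytes and for endothelial cells, and 10 for melanoma cells. Their summed linear intensities lay between 39 and 42 in DMSO and 28 and 37 at 468 nM for keratinocytes, and between 51 and 68 and 64 and 92 for endothelial cells. They were 82 to 108 and 74 to 120 for fibroblasts, 54 to 62 and 62 to 91 for leukocytes, and 1392 to 1551 and 1072 to 1379 for the melanoma list. Their part in the changes below was not tested.

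Of 9285 genes tested, limma called 1013 changed after 4 h at 468 nM (Benjamini-Hochberg adjusted p below 0.05), which is 10.9% of them. The called genes were 368 higher (3.96%) and 645 lower (6.95%), and 83 of the rises (0.894% of tested genes) and a further 1.36% of tested genes as falls reached 2-fold. Called rises had a median log2 change of 0.65 and called falls of -0.64, or 1.57-fold and 1.56-fold. The split depends on the scaling: when the arrays were instead aligned on 9 reference genes, the median over all genes moved from -0.03 to -0.15 and the calls became 196 higher and 1011 lower. All values below are relative to the distribution of the array and without this shift.

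Changes reached across the range of expression. Cut into 5 equal bins by mean log2 intensity, the genes called higher made up between 3.28% and 4.58% of a bin. The share called lower was 7.16%, 7.27%, 8.13% and 7.65% in the first 4 bins and 4.52% in the brightest, whose genes had means of 8.37 to 13.45. Precision moved with level as well, since the median standard error of a change was 0.227 in the dimmest bin and 0.109 in the brightest. Within a group, the median SD of a gene over arrays was 0.185 in DMSO and 0.188 at 468 nM. Of 167 long non-coding RNA genes 19 fell (11.38%) and 4 rose (2.40%).

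**Figure D1:**
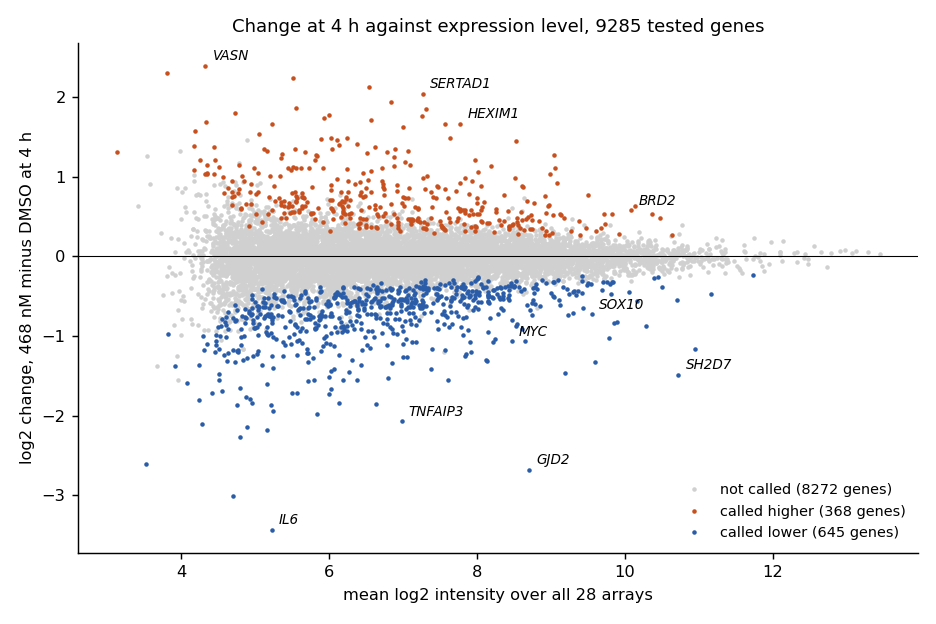
Each point is 1 of the 9285 tested genes, with its mean log2 intensity over all 28 arrays on the x axis and its log2 change (468 nM minus DMSO at 4 h) on the y axis; orange genes were called higher, blue genes lower. Falls reach from IL6 at -3.43 to small changes of bright genes, and both colours occur over nearly the whole range of levels.

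The arrays of both groups did not overlap for 488 genes that were higher (5.26% of tested genes) and 766 that were lower (8.25%). Among those called with a mean log2 intensity above 5 in both groups, the largest rise was that of H3C13, a gene for the core histone H3. SERTAD1, a CDK4-binding regulator of transcription, came next, with 6.51, 6.70, 6.38 and 6.79 on the DMSO arrays and 8.63, 8.85, 8.75, 8.41 and 8.55 on the 468 nM arrays. No array of one group reached the other, and the gap between them was wider than the range within either group; the change was 2.04 ± 0.16, adjusted p = 1.35e-09. GADD45A, a stress-induced gene of growth arrest and DNA repair, read 5.86, 6.31, 5.80 and 6.01 on the DMSO arrays and 7.90, 7.92, 7.996, 7.82 and 8.03 on the 468 nM arrays. All 5 treated arrays lay close together and far above the DMSO arrays, a change of 1.94 ± 0.16, adjusted p = 3.26e-09. TUFT1, which encodes tuftelin, read 5.27, 5.55, 5.25 and 5.41 on the DMSO arrays and 7.33, 7.08, 7.08, 7.04 and 7.18 on the 468 nM arrays, again without overlap (1.77 ± 0.13, adjusted p = 4.12e-10). HEXIM1, the inhibitor of P-TEFb whose RNA is a widely used readout of BET inhibition, read 7.24, 7.14, 6.76 and 7.12 on the DMSO arrays and 8.57, 8.64, 8.88, 8.80 and 8.77 on the 468 nM arrays. The lowest treated array stood more than 1 log2 unit above the highest DMSO array (1.67 ± 0.13, adjusted p = 5.20e-10).

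The other genes among the 15 largest rises covered signalling, growth restraint and early response. MKNK2, a kinase that phosphorylates the cap-binding protein eIF4E, changed by 1.77 ± 0.13, adjusted p = 5.10e-10, and ERRFI1, an inhibitor of the EGF receptor, by 1.49 ± 0.12, adjusted p = 2.88e-09. TOB1, an antiproliferative protein that recruits the deadenylase complex, changed by 1.66 ± 0.12, adjusted p = 4.48e-10, with treated arrays between 8.28 and 8.42. The sestrin SESN3, a restraint on mTORC1, rose by 1.63 ± 0.16, and TENT5C, a poly(A) polymerase, by 1.71 ± 0.21. The early-response gene IER5 rose by 1.74 ± 0.18, the AP-1 subunit JUN by 1.48 ± 0.20 and the MAX partner MXD1 by 1.48 ± 0.19 on the log2 scale. MXD1 rests on 1 probe set, since its adjusted p was 0.063 when its probe sets were averaged. The kinase gene PIM2 (1.49 ± 0.20) and the microRNA gene MIR3143 (1.86 ± 0.25) completed the 15. BAIAP2, an actin adaptor, had the smallest adjusted p of all rises (1.86 ± 0.12, adjusted p = 4.90e-11), with a DMSO mean of 4.99 ± 0.17.

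The largest fall under the same rule was that of GJD2, which encodes the gap junction protein connexin 36, with 10.16, 9.98, 9.52 and 9.83 on the DMSO arrays and 7.15, 7.13, 7.22, 7.30 and 7.20 on the 468 nM arrays. The 5 treated arrays lay closer together than the DMSO arrays and more than 2 log2 units below them (-2.67 ± 0.18, adjusted p = 1.03e-10). TNFAIP3, the deubiquitinase A20 that ends NF-kB signalling, read 7.88, 7.69, 7.75 and 7.84 on the DMSO arrays and 5.51, 5.60, 5.92, 5.84 and 5.73 on the 468 nM arrays, with no overlap (-2.07 ± 0.13, adjusted p = 5.46e-11). Of all falls it had the smallest adjusted p. ZHX2, a repressor with zinc fingers and homeoboxes, read 9.90, 9.71, 9.75 and 9.50 on the DMSO arrays and 8.12, 8.51, 8.26, 8.31 and 8.08 on the 468 nM arrays (-1.46 ± 0.11, adjusted p = 4.12e-10). TFAP4, a helix-loop-helix factor known as a MYC target, read 6.95, 6.74, 6.87 and 6.83 on the DMSO arrays and 4.77, 5.54, 4.65, 5.47 and 5.16 on the 468 nM arrays. Its treated arrays were more scattered than its DMSO arrays, and the groups did not overlap (-1.73 ± 0.17, adjusted p = 8.20e-08).

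The other falls of this group included CSF1, the growth factor of macrophages (-1.66 ± 0.17, adjusted p = 1.49e-07), and DKK1, a secreted Wnt antagonist (-1.55 ± 0.37, adjusted p = 0.00622). INHBA, a subunit of activin (-1.44 ± 0.26, adjusted p = 3.21e-04), and IL7R, a receptor chain for interleukin 7 (-1.44 ± 0.28, adjusted p = 9.16e-04), fell as well. DKK1 and IL7R varied widely within a group, with DMSO arrays from 7.10 to 9.01 and from 7.23 to 8.50. Regulators of transcription and signalling were NFATC2, a factor controlled by calcineurin (-1.56 ± 0.23), the zinc finger gene ZNF827 (-1.55 ± 0.17) and DACT2, which acts on Dishevelled (-1.53 ± 0.25). FIGN, a microtubule-severing enzyme (-1.84 ± 0.18), the small GTPase gene RAB33A (-1.54 ± 0.21), KLHL14 (-1.85 ± 0.25) and SH2D7 (-1.48 ± 0.13) made up the rest. SH2D7 was among the brightest genes that fell, with DMSO arrays between 10.71 and 11.13 and treated arrays between 9.20 and 9.92. LMCD1, a LIM-domain cofactor (-1.33 ± 0.10, adjusted p = 1.35e-09), and SH3RF2 (-1.12 ± 0.09, adjusted p = 1.59e-09) were the next most certain falls.

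**Figure D2:**
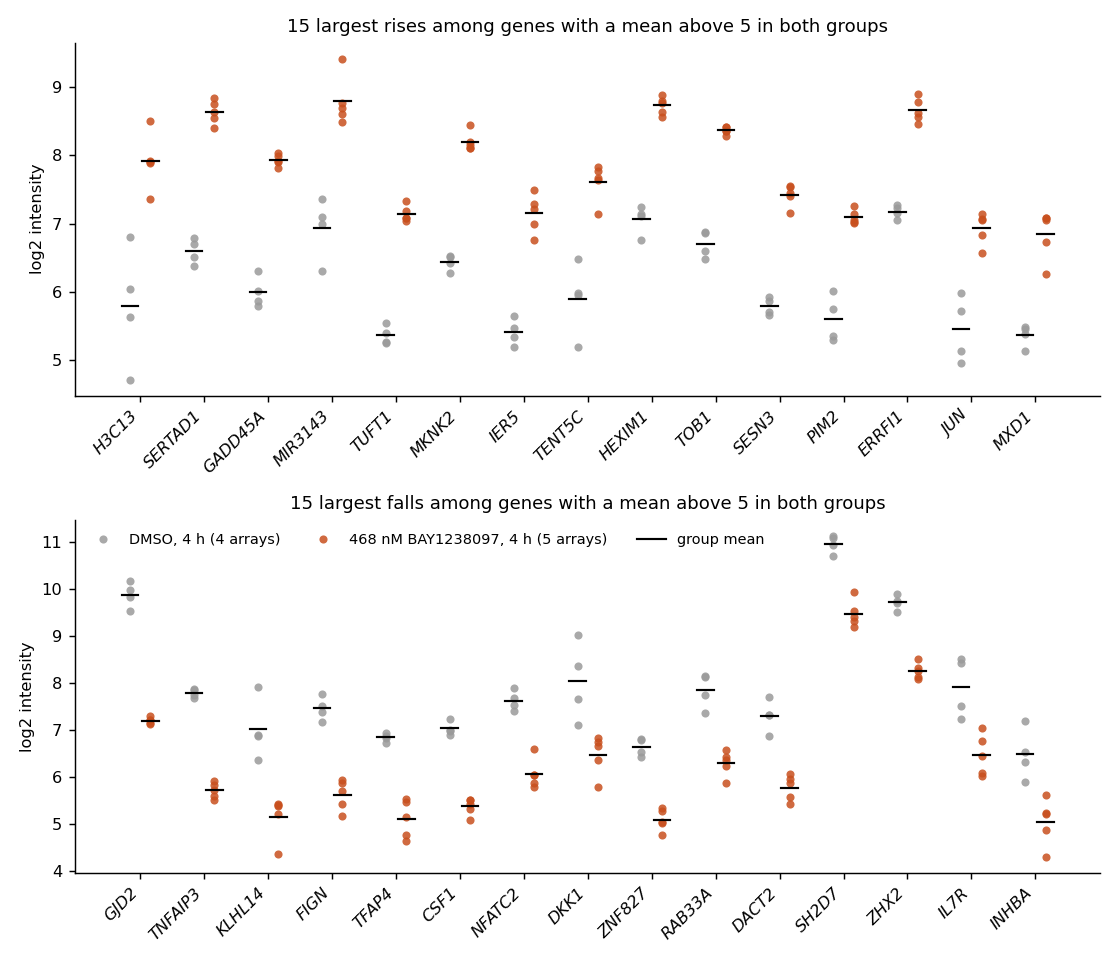
Dots are single arrays (grey, 4 with DMSO; orange, 5 with 468 nM BAY1238097), bars are group means, and the y axis is log2 intensity for the 15 largest rises (top) and falls (bottom) with a mean above 5 in both groups. The rule asks for arrays that do not overlap, so the separation is fixed by the choice of genes; the spread within groups is not, and is small for GADD45A and GJD2 and wide for H3C13 and DKK1.

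Some larger values rest on a dim group, which makes their size uncertain. IL6, an inflammatory cytokine, read 7.11, 8.67, 6.37 and 7.97 on the DMSO arrays and 4.31, 3.86, 5.36, 2.63 and 4.35 on the 468 nM arrays, so that its arrays varied by over 2 units within either group while the groups stayed apart (-3.43 ± 0.59, adjusted p = 1.89e-04). The neighbouring antisense gene STEAP1B-AS1 changed by -2.27 ± 0.28, adjusted p = 1.91e-06 and TMEM238L by -3.001 ± 0.51, adjusted p = 1.61e-04. The microRNA gene MIR568 (-2.60 ± 0.76, adjusted p = 0.0237) lost its call if DMSO replicate 1 or 3, or 468 nM replicate 3 or 5 was left out (adjusted p = 0.0564 to 0.0813). VASN, a membrane protein that binds TGF-beta, rose from 3.52 ± 0.52 (SD, n = 4) to 5.91 ± 0.25 (SD, n = 5; adjusted p = 1.78e-06). The growth factor gene FGF18 (2.30 ± 0.30, adjusted p = 4.99e-06) and the histone gene H2BC5 (2.24 ± 0.27, adjusted p = 1.42e-06) were the other large rises from a dim start. All 4 DMSO arrays lay below 5 for VASN, FGF18 and H2BC5, so that these genes passed the filter through groups in which they were higher. FGF18 stood above 5 on 4 of the 5 treated arrays and had 24 h means of 3.27 in DMSO and 3.19 at 468 nM.

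To see what the promoters of these genes share, the 300 bases around each gene's start (250 before and 50 after) were searched for 8 known motifs on both strands, in RefSeq sequence of build GRCh38.p14; no motif holds another. A promoter was at hand for 7506 of the 9285 tested genes. The CCAAT box (letters CCAAT, or ATTGG on the other strand), the binding word of the factor NF-Y, lay in 153 of 306 promoters of genes called higher. It lay in 172 of 531 promoters of genes called lower (32.4%), in 37.7% of all 7506 and in 35.7% of the 27305 promoters in the RefSeq table. Of rises of at least 2-fold, 41 of 68 promoters held it (60.3%), and of such falls 35 of 99 (35.4%). Promoters differ in base composition, with a median GC content of 67.7% for genes called higher, 64.3% for genes called lower and 58.3% for all promoters in the table. With the tested promoters in 3 equal groups by GC content, the share was 58.8%, 54.8% and 39.5% for genes called higher, from the group with the lowest GC content to that with the highest. For genes not called it was 45.5%, 39.6% and 27.6%, and for genes called lower 89 of 217 promoters, 30.3% and 23.6%. The share was higher among rises in each GC group, which is a description without a test. Among the 15 largest rises 13 had a promoter and 10 of these held the word, among the 15 largest falls 9 had one and INHBA alone held it. The stretches below, the 150 bases before the start of 6 genes that rose, show where the word (in capitals, on either strand) lies.
HEXIM1, chr17:45148325-45148474, plus strand: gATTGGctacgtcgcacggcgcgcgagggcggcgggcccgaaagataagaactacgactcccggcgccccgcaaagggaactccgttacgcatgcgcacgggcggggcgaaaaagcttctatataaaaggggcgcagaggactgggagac
SERTAD1, chr19:40425993-40426142, minus strand: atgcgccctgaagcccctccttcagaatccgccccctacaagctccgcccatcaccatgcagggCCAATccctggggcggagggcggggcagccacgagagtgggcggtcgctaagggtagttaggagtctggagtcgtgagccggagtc
TUFT1, chr1:151540159-151540308, plus strand: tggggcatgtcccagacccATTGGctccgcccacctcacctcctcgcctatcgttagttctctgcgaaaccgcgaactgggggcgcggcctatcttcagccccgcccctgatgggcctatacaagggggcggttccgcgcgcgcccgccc
IER5, chr1:181088550-181088699, plus strand: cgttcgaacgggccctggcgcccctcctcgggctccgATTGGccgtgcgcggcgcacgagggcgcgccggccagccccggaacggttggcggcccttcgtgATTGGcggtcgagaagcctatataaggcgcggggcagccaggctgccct
JUN, chr1:58784048-58784197, minus strand: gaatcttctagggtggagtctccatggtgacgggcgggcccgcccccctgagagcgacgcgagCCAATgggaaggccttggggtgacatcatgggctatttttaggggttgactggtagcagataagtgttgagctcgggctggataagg
H2BC21, chr1:149886683-149886832, minus strand: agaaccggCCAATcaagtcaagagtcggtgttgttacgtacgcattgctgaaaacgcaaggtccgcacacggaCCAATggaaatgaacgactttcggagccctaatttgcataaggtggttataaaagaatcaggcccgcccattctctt

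In these stretches the word began 149 bases before the start in HEXIM1, 86 in SERTAD1, 131 in TUFT1 and 87 in JUN. IER5 held it at 113 and 49 bases, and the histone gene H2BC21 at 142 and 77. All 6 histone genes that were called higher had it, but the histone genes that were not called were not counted apart. The kB site, the word of NF-kB (searched as GGGA, any 1 base and TTTCC), was rare: it lay in 0 of 306 promoters of genes called higher, in 5 of 531 of genes called lower (0.942%) and in 43 of 7506 tested (0.573%), as in 0.579% of all promoters. It stood before TNFAIP3 and IL6, among the largest falls, which are shown with the site in capitals.
TNFAIP3, chr6:137867109-137867258, plus strand: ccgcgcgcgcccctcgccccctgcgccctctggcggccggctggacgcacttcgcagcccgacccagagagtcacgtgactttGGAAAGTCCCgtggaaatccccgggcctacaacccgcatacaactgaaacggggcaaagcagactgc
IL6, chr7:22727050-22727199, plus strand: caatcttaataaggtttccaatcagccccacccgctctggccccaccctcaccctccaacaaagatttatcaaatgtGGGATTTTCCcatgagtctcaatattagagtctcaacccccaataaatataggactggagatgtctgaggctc

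The site began 67 bases before the start of TNFAIP3 and 73 before that of IL6. The IL6 stretch also holds the word CCAAT, left in lower case there, although IL6 fell. The E-box CACGTG, the word of MYC and MAX, lay in 10.8% of the promoters of rises, 11.9% of falls, 10.5% of tested genes and 7.43% of all promoters. The TATA box (TATAAA) lay in 8.82%, 6.40% and 5.10% of the first 3 sets and in 3264 of 27305 promoters in all. The AP-1 site (TGANTCA) lay in 3.92%, 5.27%, 3.69% and 7.76%, and the CRE (TGACGTCA) in 3.27%, 4.71%, 3.61% and 1.98%. The serum response element (CCATAT, any 1 base and AGG) was found in 2 promoters of rises, 1 of falls, 10 of tested genes and 37 in all, and the heat shock element (GAA, any 2 bases, TTC, any 2 bases and GAA) in 0, 2, 20 and 133. A match is a description of the letters and not a bound site.

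Among the genes through which BET proteins act on RNA polymerase II, HEXIM1 changed most. Of 7 genes of P-TEFb and its inhibitors, 2 rose and 1 fell (42.9% called, against 10.9% of all tested genes). Their median was 0.144 against -0.03 over all genes tested, and 0.018 after that shift by reference genes. The rises were those of HEXIM1 and of CCNT2, a cyclin subunit of P-TEFb (0.56 ± 0.10, adjusted p = 4.57e-04), while HEXIM2, the paralog of HEXIM1, fell at a dim level (-1.0 ± 0.25, adjusted p = 0.00828). The kinase subunit CDK9 (0.13 ± 0.10, adjusted p = 0.496) and cyclin T1, CCNT1 (0.21 ± 0.08, adjusted p = 0.0977), did not pass, nor did the 7SK-binding proteins LARP7 (-0.23 ± 0.11, adjusted p = 0.224) and MEPCE (0.14 ± 0.11, adjusted p = 0.485). LARP7 passed as lower after the shift by reference genes (adjusted p = 0.0165). Of 22 tested elongation factors, 2 rose and 1 fell (13.6% called, near the 10.9% of all tested genes). The fall was lost if DMSO replicate 3, DMSO replicate 4, 468 nM replicate 3 or 468 nM replicate 5 was left out. The rises were CTR9, a subunit of the PAF1 complex (0.50 ± 0.08, adjusted p = 1.33e-04), and ELL2. ELL2, a subunit of the super elongation complex (0.30 ± 0.08, adjusted p = 0.0159), lost its call if DMSO replicate 4 was left out (adjusted p = 0.0777).

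Of 18 tested BET genes and chromatin partners 3 rose and 0 fell in limma (16.7%, against 10.9% of all tested genes; 2 fell at an unadjusted p below 0.05; median -0.093). BRD2 read 9.97, 10.03, 9.84 and 9.73 on the DMSO arrays and 10.38, 10.50, 10.50, 10.41 and 10.57 on the 468 nM arrays, a small change without overlap (0.58 ± 0.08, adjusted p = 7.78e-06). It was measured by 1 chosen probe set of several, and the mean of all of them gave a change of 0.035 (adjusted p = 0.925). The Mediator subunit MED26 rose by 0.69 ± 0.14, adjusted p = 0.00139, while CDK8, its kinase subunit (0.35 ± 0.11, adjusted p = 0.0275), lost its call if DMSO replicate 2 or 3, or 468 nM replicate 2, 3 or 5 was left out (adjusted p = 0.0501 to 0.136). BRD3 stood at 0.20 ± 0.14, adjusted p = 0.455 and did not pass. Here and below, the share of all tested genes at an unadjusted p below 0.05 was not counted. List counts at that p therefore have no base beside them and cannot be set against 10.9%.

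In the MYC network, 10 of 16 genes were tested, of which 3 rose, 1 fell and 6 were not called. Of all tested genes 10.9% were called, 3.96% as higher and 6.95% as lower. MYC, the growth-promoting transcription factor, read 8.86, 8.90, 8.73 and 8.67 on the DMSO arrays and 7.57, 7.88, 7.80, 7.91 and 7.47 on the 468 nM arrays, with a clear gap between the groups (-1.07 ± 0.13, adjusted p = 2.59e-06). Besides MXD1, the rises were those of TXNIP, an inhibitor of thioredoxin and of glucose uptake (1.03 ± 0.18, adjusted p = 1.82e-04), and of its relative ARRDC4 (0.73 ± 0.15, adjusted p = 9.78e-04). Both are known targets of MondoA, a distant relative of MYC. Nucleolar ribosome assembly genes are a class known to depend on MYC. Of 30 tested, limma called 0 higher and 3 lower (0 and 7 at an unadjusted p below 0.05), with a median of -0.164. That is 10.0% called, near the 10.9% of all tested genes. RRS1 was one of the falls (-0.81 ± 0.21, adjusted p = 0.00996). The count of falls was 1 with DMSO replicate 1, 2 or 4, or any 468 nM replicate other than 2, left out.

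Early-response factors moved in both directions. Of 30 tested IER, EGR, KLF and NR4A genes 6 rose and 6 fell, 12 of 30 against 10.9% of all tested genes (median -0.158). The rises included EGR1, a zinc finger factor induced by growth signals (1.11 ± 0.28, adjusted p = 0.00977), CCN1, a secreted matrix protein (0.91 ± 0.17, adjusted p = 5.86e-04), and IER2 (0.77 ± 0.18, adjusted p = 0.00566). Against these, 5 Krüppel-like factors fell: KLF5 (-0.84 ± 0.18), KLF6 (-0.95 ± 0.12), KLF7 (-0.71 ± 0.16), KLF9 (-0.95 ± 0.24) and KLF11 (-0.85 ± 0.17). KLF6 read 8.36, 8.70, 8.30 and 8.60 on the DMSO arrays and 7.50, 7.33, 7.62, 7.34 and 7.90 on the 468 nM arrays, with the groups apart (adjusted p = 3.66e-06), and KLF9 lost its call if DMSO replicate 4 was left out (adjusted p = 0.0509). Among 21 tested AP-1 and ATF/CREB genes 3 rose and 4 fell (33.3% called, against 10.9% of all tested genes). All 3 rises were JUN family members, JUN, JUND (1.35 ± 0.18, adjusted p = 5.56e-06) and JUNB (0.85 ± 0.17, adjusted p = 0.00127). The falls included MAF, a large Maf factor (-0.71 ± 0.16, adjusted p = 0.00302), and the number of falls dropped to 2 if DMSO replicate 1, DMSO replicate 3, 468 nM replicate 3 or 468 nM replicate 4 was left out, and to 1 if DMSO replicate 4 was.

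Of 29 tested feedback genes of MAPK and PI3K signalling 8 rose and 2 fell (34.5%, against 10.9% of all tested), with a median of 0.079 that became -0.047 after the shift by reference genes. The dual-specificity phosphatases divided: DUSP10, which acts on p38 and JNK, rose (0.74 ± 0.18, adjusted p = 0.00667), while DUSP8 fell (-1.32 ± 0.27, adjusted p = 0.00127). The PI3K regulatory subunits PIK3R1 (0.74 ± 0.13, adjusted p = 3.25e-04) and PIK3R3 (0.94 ± 0.15, adjusted p = 8.67e-05) rose, and so did PHLDA1 (0.95 ± 0.20, adjusted p = 0.00159). SPRY2, a Sprouty inhibitor of receptor tyrosine kinase signalling, fell (-0.80 ± 0.13, adjusted p = 9.93e-05).

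Cytokine genes and NF-kB genes contributed mostly falls. Of 39 cytokine, chemokine and receptor genes only 16 were bright enough to test, and 5 of these fell and 1 rose (37.5% against 10.9%, median -0.216). IL6, CSF1 and IL7R stand above. Of 14 tested NF-kB subunit and feedback genes 3 fell and 1 rose (28.6% called, against 10.9% of all tested genes, median -0.148). Beside TNFAIP3, the falls were NFKB1, the p105 precursor of the p50 subunit (-0.63 ± 0.13, adjusted p = 0.00128), and TRAF1, which binds TNF receptors (-1.36 ± 0.32, adjusted p = 0.00529). NFKBIE, which encodes the inhibitor IkB epsilon, went the other way (1.23 ± 0.20, adjusted p = 8.67e-05). Of 20 tested interferon-stimulated genes 1 rose and 1 fell (10.0% called, near the 10.9% of all tested genes). The fall was that of RTP4, with 5.84, 5.68, 6.33 and 6.08 on the DMSO arrays and 3.42, 4.03, 3.36, 3.85 and 4.36 on the 468 nM arrays (-2.18 ± 0.22, adjusted p = 9.85e-08). Its treated arrays lay near the dim end of the tested range; the list had 0 rises without DMSO replicate 1 and 2 falls without 468 nM replicate 3.

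The pathway lists were made with earlier results of these data known, so their ranking may partly reflect that choice. Among them, the list of p53 targets, sestrins and GADD45 genes had the largest share of called genes. Of 33 members 21 were tested, and 10 rose and 2 fell, 57.1% against 10.9% of all tested genes, with a median of 0.437 (0.311 after the shift by reference genes). Without single arrays the rises numbered between 8 and 10. All 3 sestrins rose: SESN2 (1.31 ± 0.16, adjusted p = 2.30e-06), SESN1 (0.72 ± 0.16, adjusted p = 0.00277) and SESN3. SESN2 read 6.71, 6.70, 6.57 and 6.50 on the DMSO arrays and 7.92, 8.21, 7.92, 8.07 and 7.52 on the 468 nM arrays, with a clear gap between the groups. GADD45B (0.99 ± 0.13, adjusted p = 6.13e-06) rose with GADD45A, and so did DDIT4, a stress-induced inhibitor of mTORC1 (0.73 ± 0.19, adjusted p = 0.00969), the cyclin-like CCNG1 (0.58 ± 0.10, adjusted p = 1.61e-04) and TIGAR, a regulator of glycolysis (0.64 ± 0.14, adjusted p = 0.00186). PPM1D, the phosphatase that acts on p53, was called at 0.44 ± 0.12, adjusted p = 0.0156 but not if DMSO replicate 1 or 4 was left out (adjusted p = 0.0592 to 0.0612), and RRM2B, a ribonucleotide reductase subunit (0.44 ± 0.14, adjusted p = 0.0366), not if DMSO replicate 1, 2 or 3, or 468 nM replicate 1, 3, 4 or 5 was left out (adjusted p = 0.0525 to 0.133). The members that fell were MDM2, the ubiquitin ligase of p53 and its classical target (-0.51 ± 0.13, adjusted p = 0.0101), and the nuclease AEN (-0.52 ± 0.14, adjusted p = 0.0166). MDM2 lost its call if DMSO replicate 1 was left out (adjusted p = 0.0596) and AEN if DMSO replicate 1, or 468 nM replicate 3 was left out (adjusted p = 0.0519 to 0.0653).

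Of 19 tested genes of cell death 3 rose and 3 fell (31.6%, against 10.9% of all tested genes); with the replicate block 2 rose and 4 fell, and after the shift by reference genes 2 and 5. BCL2L11, which encodes the death-promoting BIM (1.12 ± 0.20, adjusted p = 3.81e-04), and PMAIP1, which encodes NOXA (1.10 ± 0.21, adjusted p = 6.67e-04), rose. The survival genes BCL2 (-0.92 ± 0.19, adjusted p = 0.00148) and BCL2L1 (-0.70 ± 0.14, adjusted p = 0.00119) fell. The remaining called members went the other way: the survival gene MCL1 rose and the caspase gene CASP2 fell. BCL2 read 8.54, 8.59, 8.70 and 7.99 on the DMSO arrays and 7.39, 7.30, 7.75, 7.85 and 7.39 on the 468 nM arrays, so that the groups did not overlap. In limma, 0 of 46 tested DNA replication genes rose and 3 fell (6.5%, median -0.075; 0 and 10 at an unadjusted p below 0.05). Of 44 tested mitosis genes 0 rose and 3 fell (6.8%, median -0.108), against 0 and 7 at an unadjusted limma p below 0.05. The share of called falls in either list was near the 6.95% over all genes. That base does not apply to the unadjusted counts. ORC5, a subunit of the origin recognition complex (-0.66 ± 0.10, adjusted p = 3.42e-05), and the mitotic kinase AURKA (-0.86 ± 0.20, adjusted p = 0.00415) were among these falls. Falling mitosis genes numbered 1 if DMSO replicate 1, 2 or 3 or 468 nM replicate 1 or 5 was left out. After the shift by reference genes 9 replication and 5 mitosis genes were called lower. Under that shift 1011 of all 9285 tested genes were called lower and 196 higher, so falls were more frequent throughout. At 24 h the medians of the same genes were -1.032 and -1.437. Of 25 tested G1/S genes 3 rose and 3 fell (24.0%, against 10.9% of all tested genes), and 0 fell with DMSO replicate 1 left out and 1 with DMSO replicate 2, DMSO replicate 3, 468 nM replicate 1, 468 nM replicate 3 or 468 nM replicate 5 left out. With the replicate block 1 fell, and after the shift by reference genes 1 rose and 5 fell. Of these genes CCND1, which encodes cyclin D1, changed by -0.46 ± 0.12 with overlapping arrays (adjusted p = 0.0116), and lost its call if DMSO replicate 1 was left out (adjusted p = 0.0787) and with only the compared groups in the fit (adjusted p = 0.101). E2F7, a repressor of the E2F family, rose (0.54 ± 0.12, adjusted p = 0.00214), though with an adjusted p of 0.0577 after the shift by reference genes.

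Histone genes supplied 6 rises and 0 falls among 22 tested of 71 listed (27.3%, against 10.9% of all tested genes called and 3.96% called higher; 10 and 1 at an unadjusted p below 0.05 in limma; median 0.338, or 0.212 after the shift by reference genes). H3C13 read 6.04, 6.80, 5.64 and 4.72 on the DMSO arrays and 7.92, 7.90, 8.51, 7.91 and 7.37 on the 468 nM arrays; the DMSO arrays were widely spread and stayed below the treated ones (2.12 ± 0.30, adjusted p = 1.24e-05). H2BC21 read 5.47, 6.35, 5.05 and 5.55 on the DMSO arrays and 6.995, 6.37, 7.44, 6.85 and 7.25 on the 468 nM arrays (1.38 ± 0.21, adjusted p = 5.53e-05). Its groups nearly met, at 6.35 in DMSO and 6.37 with the compound. H2AX, the variant that is phosphorylated at DNA breaks, changed by 0.67 ± 0.14, adjusted p = 0.00153. H2BC9 (1.09 ± 0.30, adjusted p = 0.0167) lost its call if DMSO replicate 3 or 4 was left out (adjusted p = 0.0558 to 0.0759). H2BC18 was dim, with a mean of 2.01 ± 0.50 (SD, n = 4) in DMSO, and passed the filter through other groups of the series (1.31 ± 0.31, adjusted p = 0.00581), but it had an adjusted p of 0.0642 with only the compared groups in the fit. Histone genes are near-identical copies of each other, so probes may read more than 1 of them and the values are uncertain as to the single gene.

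**Figure D3:**
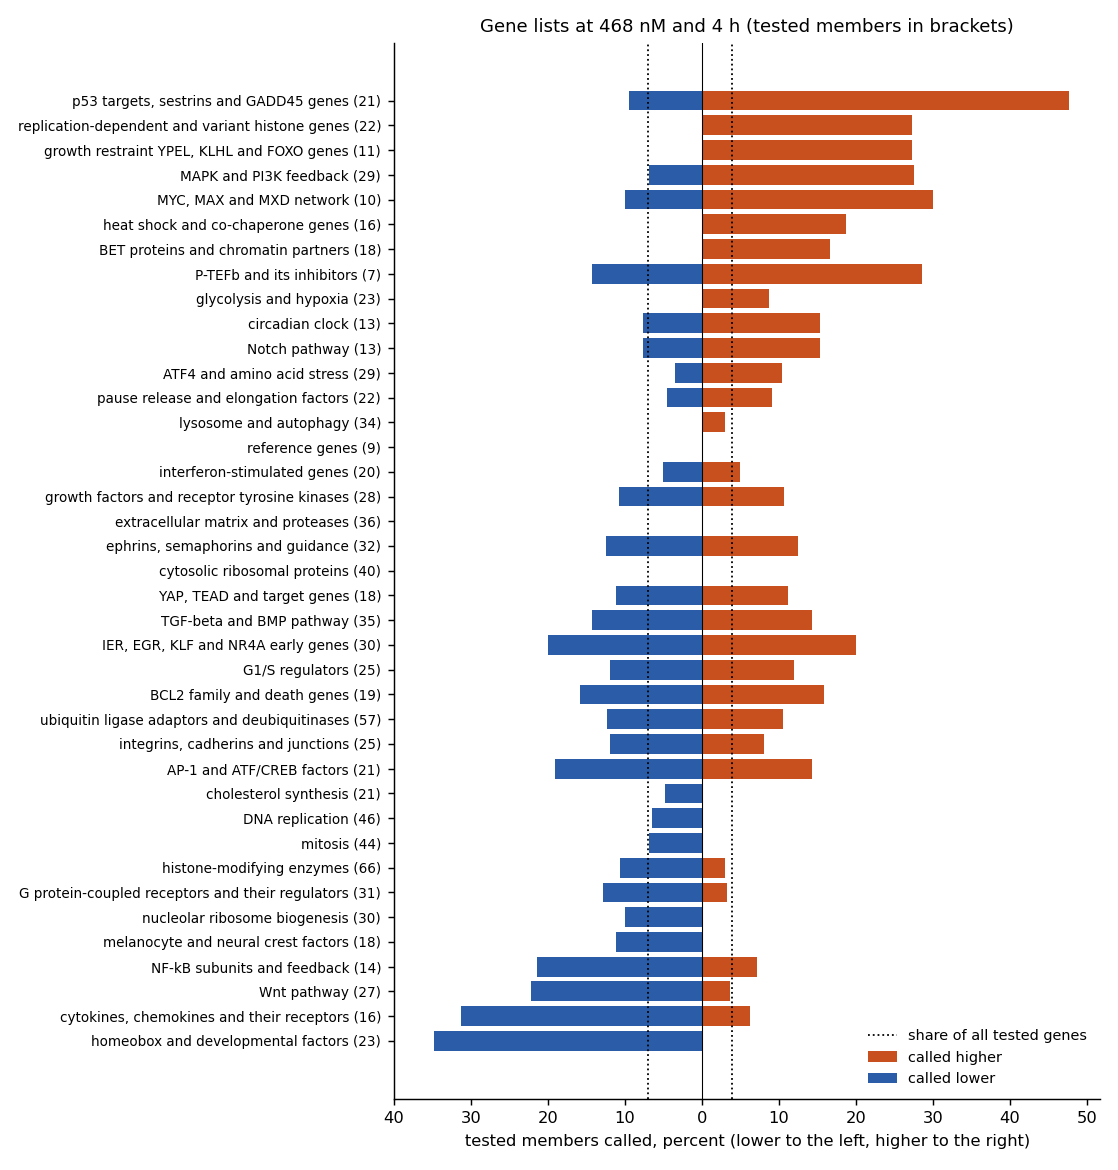
Bars give the percentage of the tested members of each gene list called higher (orange, to the right) and lower (blue, to the left) at 468 nM and 4 h; dotted lines mark the 3.96% and 6.95% of all tested genes. The p53, sestrin and GADD45 list reaches farthest to the right and the homeobox and developmental list farthest to the left, while ribosomal protein, extracellular matrix and reference genes have no bar.

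Among developmental transcription factors only falls were called. Of 77 homeobox and developmental genes 23 were tested, and 8 fell and 0 rose in limma (34.8% against 10.9% of all tested genes, median -0.378; 10 and 0 at an unadjusted p below 0.05); between 8 and 9 fell when single arrays were left out. They were HOXB7 (-0.72 ± 0.12, adjusted p = 1.89e-04), HOXB9 (-0.71 ± 0.12, adjusted p = 1.61e-04), the HOX partners MEIS1 (-1.01 ± 0.16, adjusted p = 5.75e-05), MEIS2 (-0.92 ± 0.18, adjusted p = 0.00114) and PKNOX1 (-0.38 ± 0.09, adjusted p = 0.00488), TBX18 (-0.89 ± 0.17, adjusted p = 7.57e-04), FOXC2 (-0.84 ± 0.22, adjusted p = 0.0118) and NFIC (-0.60 ± 0.15, adjusted p = 0.0106). HOXB9 was the bright one among the HOX genes, with 9.68, 9.55, 9.67 and 9.50 on the DMSO arrays and 8.82, 9.03, 8.77, 8.88 and 8.94 on the 468 nM arrays and no overlap. Of 18 tested melanocyte and neural crest genes 2 fell and 0 rose in limma (3 and 0 at an unadjusted p below 0.05). That is 11.1% called, near the 10.9% of all tested genes. With the replicate block 4 fell. SOX10 read 9.69, 9.55, 9.59 and 9.61 on the DMSO arrays and 8.92, 8.83, 8.75, 8.82 and 9.08 on the 468 nM arrays (-0.73 ± 0.13, adjusted p = 4.31e-04), and ZEB2, a zinc finger factor of the melanocyte lineage, changed by -1.17 ± 0.17, adjusted p = 1.95e-05. For both, all treated arrays lay below all DMSO arrays. HMX2 (-1.72 ± 0.21, adjusted p = 1.76e-06), HMX3 (-1.12 ± 0.19, adjusted p = 1.52e-04) and ZIC1 (-1.41 ± 0.20, adjusted p = 1.05e-05), which are developmental factors outside the list and were picked after their values were seen, fell too.

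Pathways between cells contributed single genes. In the Wnt list 6 of 27 tested genes fell and 1 rose (25.9% called, against 10.9% of all tested genes, with 3 falls without DMSO replicate 3). Beside DKK1 the falls included TCF7L2, the nuclear partner of beta-catenin (-0.77 ± 0.12, adjusted p = 9.49e-05), and the corepressor TLE1 (-0.60 ± 0.14, adjusted p = 0.00502), and the rise was NKD1, a feedback inhibitor (1.01 ± 0.21, adjusted p = 0.00153). Of 35 tested TGF-beta and BMP genes 5 rose and 5 fell (28.6% called, against 10.9% of all tested genes, with 3 falls without DMSO replicate 1). The inhibitors divided, with SKI (0.86 ± 0.16, adjusted p = 3.41e-04) and the decoy receptor BAMBI (0.67 ± 0.12, adjusted p = 4.31e-04) higher and the activin-binding FST lower (-0.87 ± 0.11, adjusted p = 2.43e-06), and the BMP target ID1 rose (0.53 ± 0.12, adjusted p = 0.0046). Of 13 tested Notch genes 2 rose and 1 fell (23.1% called, against 10.9% of all tested genes). The fall was not called if DMSO replicate 1, DMSO replicate 4, 468 nM replicate 1 or 468 nM replicate 3 was left out. The rises were the ligand JAG1 (1.35 ± 0.21, adjusted p = 5.88e-05) and the glycosyltransferase LFNG (1.57 ± 0.23, adjusted p = 1.99e-05).

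Of 28 tested growth factor and receptor tyrosine kinase genes 3 rose and 3 fell (21.4% called, against 10.9% of all tested genes). With the replicate block 6 fell. KITLG, the ligand of KIT, rose (1.29 ± 0.19, adjusted p = 2.06e-05), and PDGFB (-1.86 ± 0.17, adjusted p = 1.28e-08) and FGF7 (-1.60 ± 0.26, adjusted p = 9.21e-05) fell. FGF9, with -1.01 ± 0.20, adjusted p = 1.0e-03, lies outside that list. Guidance genes had 4 rises and 4 falls among 32 tested (25.0% called, against 10.9% of all tested genes). They had 2 rises without DMSO replicate 3 or 468 nM replicate 4. The receptor EPHB3 rose (1.35 ± 0.20, adjusted p = 3.20e-05) while its relative EPHA2 (-0.91 ± 0.19, adjusted p = 0.00159) and the semaphorins SEMA4C (-1.10 ± 0.12, adjusted p = 2.27e-07) and SEMA6D (-1.87 ± 0.23, adjusted p = 2.59e-06) fell. RGS2, which shortens signals of G proteins, rose (1.35 ± 0.15, adjusted p = 3.22e-07), and the sphingosine-phosphate receptor S1PR2 fell (-0.79 ± 0.14, adjusted p = 2.55e-04). Protocadherins were split as well, with PCDH10 higher (1.80 ± 0.29, adjusted p = 9.74e-05) and PCDH18 lower (-1.16 ± 0.09, adjusted p = 2.33e-09). PCDH18 stood at 11.11 ± 0.10 (SD, n = 4) in DMSO, and its treated arrays read 9.70, 9.84, 10.28, 10.09 and 9.88, all below the DMSO arrays.

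Of 66 tested histone-modifying enzymes 7 fell and 2 rose (13.6%, near the 10.9% of all tested genes; 4 and 4 without DMSO replicate 2). The H3K9 methyltransferases SETDB1 (-0.85 ± 0.10, adjusted p = 1.04e-06) and SUV39H1 (-0.73 ± 0.17, adjusted p = 0.00501) and the H3K79 methyltransferase DOT1L (-0.54 ± 0.14, adjusted p = 0.00957) fell, while the deacetylase SIRT1 rose (0.98 ± 0.12, adjusted p = 1.84e-06). SIRT1 read 8.31, 8.30, 8.12 and 8.27 on the DMSO arrays and 9.22, 9.15, 9.28, 9.24 and 9.28 on the 468 nM arrays, with no overlap. Of 57 tested ubiquitin ligase adaptors and deubiquitinases 6 rose and 7 fell (22.8%, against 10.9% of all tested genes). KLHL15 (1.41 ± 0.16, adjusted p = 6.36e-07), the cytokine-signalling suppressor SOCS1 (1.39 ± 0.24, adjusted p = 2.08e-04) and RNF19B (0.99 ± 0.09, adjusted p = 3.97e-08) rose. SOCS1 started from a dim DMSO mean of 3.76 and passed the filter with the help of arrays from other groups, so its size is uncertain. KEAP1, the adaptor for degradation of NRF2, (-0.63 ± 0.13, adjusted p = 0.00104), and KBTBD6 (-1.04 ± 0.19, adjusted p = 3.64e-04) fell. Heat shock and co-chaperone genes had 3 rises and 0 falls among 16 tested in limma (18.8%, against 10.9% of all tested genes). At an unadjusted limma p below 0.05 they had 6 and 1. Their median was 0.125, or -0.001 after the shift by reference genes. BAG3 (0.94 ± 0.10, adjusted p = 1.44e-07) and HSPA2 (1.12 ± 0.26, adjusted p = 0.00426) were among the rises. Clock genes included a rise of PER1 (1.11 ± 0.17, adjusted p = 3.81e-05) and a fall of CLOCK (-0.61 ± 0.10, adjusted p = 1.31e-04). Of 40 tested ribosomal protein genes 0 were called by limma (3 at an unadjusted p below 0.05, of which 1 was higher), and 0 of 9 reference genes (0 at an unadjusted p below 0.05).

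The dose was varied at 4 h, so each gene can be set against its value at 75 nM, the dose given as the IC50. Tested directly, 238 genes differed between the doses (2.56%), 1.13% as higher at 468 nM and 1.43% as lower; this contrast shares the 468 nM arrays with the comparison above. At 75 nM against the same DMSO arrays 63 genes were called (0.679%), 31 higher (0.334%) and 32 lower (0.345%). GJD2 stood at 9.88 ± 0.27 in DMSO, 8.73 ± 0.26 at 75 nM and 7.20 ± 0.06 at 468 nM (SD, n = 4, 5 and 5), a difference between doses of -1.53 ± 0.17, adjusted p = 1.69e-05. SERTAD1 stood at 6.60 ± 0.18, 7.64 ± 0.17 and 8.64 ± 0.17, with a difference between doses of 0.997 ± 0.15, adjusted p = 2.56e-04. In both genes the lower dose gave a value near the middle of the range. SOX10 behaved differently, with 9.61 ± 0.06, 9.52 ± 0.15 and 8.88 ± 0.13: nearly all of its fall lay between the doses (-0.64 ± 0.13, adjusted p = 0.00392). ZEB2 changed by -0.13 at 75 nM and -1.17 at 468 nM (difference between doses -1.04 ± 0.16, adjusted p = 2.56e-04), KITLG by 0.19 and 1.29 (1.09 ± 0.18, adjusted p = 4.47e-04), and ZNF827 by -0.41 and -1.55 (-1.14 ± 0.16, adjusted p = 1.05e-04). BRD2 was the opposite case, at 9.89 ± 0.14, 10.38 ± 0.08 and 10.47 ± 0.08. Its difference between the doses, 0.09 ± 0.07, did not pass (adjusted p = 0.781). FGF18 also reached most of its change at the lower dose (1.69 against 2.30), and its difference between doses did not pass (0.61 ± 0.28, adjusted p = 0.404).

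**Figure D4:**
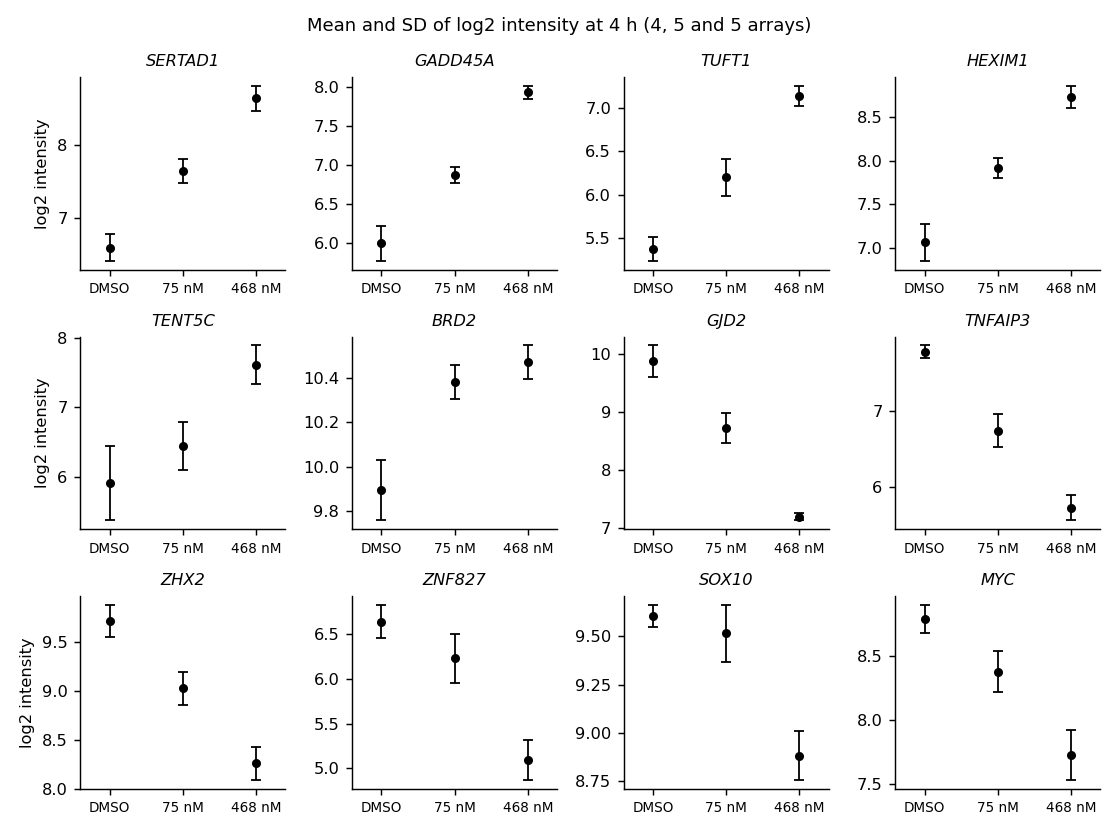
Points are group means and bars the SD of log2 intensity at 4 h for DMSO (4 arrays), 75 nM and 468 nM (5 arrays each), with a y axis of its own for each of the 12 genes. Most genes step down or up at both doses, whereas SOX10 and ZNF827 move mainly between 75 nM and 468 nM and BRD2 mainly between DMSO and 75 nM.

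The 24 h arrays have DMSO controls of their own, so they show separately which of the early changes were present later. Of the 368 genes that were higher at 4 h, 220 were also called higher at 24 h, which is 59.8% of the early rises and 11.6% of the 1896 rises at 24 h (20.4% of tested genes, with 45.6% called in either direction). Of the 645 early falls, 338 were called lower at 24 h, or 52.4% of them and 14.5% of the 2335 falls at 24 h (25.1% of tested genes). At 24 h 127 of the early rises and 268 of the early falls were not called. HEXIM1 remained high, with a change of 1.30 ± 0.13, adjusted p = 8.76e-09 at 24 h, and its difference between the times did not pass (-0.37 ± 0.18, adjusted p = 0.135). SESN3 stood at 2.17 ± 0.16, adjusted p = 1.25e-10, a difference that did not pass (adjusted p = 0.0813), and TXNIP rose further to 2.77 ± 0.18, adjusted p = 1.14e-11 (difference 1.74 ± 0.25, adjusted p = 2.17e-05). IL6 (-3.71 ± 0.59, adjusted p = 1.23e-05) remained low, and IL7R, at -4.72 ± 0.28, adjusted p = 5.83e-12, differed from 4 h by -3.27 ± 0.40 (adjusted p = 3.19e-06). Such differences between the times use the 4 h arrays too; 23.5% of tested genes passed, 10.8% with a higher and 12.7% with a lower value at 24 h.

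A set of early rises had gone or turned by 24 h. FGF18 stood at -0.08 ± 0.30, adjusted p = 0.855 at 24 h, SOCS1 at 0.19 ± 0.24, adjusted p = 0.554, SESN2 at -0.23 ± 0.16, adjusted p = 0.248 and GADD45B at 0.13 ± 0.13, adjusted p = 0.44. The difference from 4 h passed for all 4 (adjusted p = 3.11e-05 to 0.0112). For 54 early rises and 127 early falls the 24 h change was not called and the difference between the times was. A further 21 genes, 5.71% of the early rises, rose at 4 h and fell at 24 h. Of all tested genes 25.1% were called lower at 24 h, so such turns were few. The 21 included the chaperone gene HSPA2 (1.12 and -0.84), its co-chaperone BAG3 (0.94 and -0.48) and HERPUD1, a gene of the unfolded protein response (0.61 and -0.97). The vitamin D receptor gene VDR (1.04 and -0.61), the kinase gene PIM1 (0.61 and -0.32), NCEH1 (1.11 and -0.43) and E2F7 (0.54 and -0.61) did the same. All of these changes were called at both times.

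In the opposite direction 39 genes fell at 4 h and rose at 24 h (6.05% of the early falls, where 20.4% of all tested genes were called higher at 24 h). SOX10 was one of them, with -0.73 ± 0.13 at 4 h and 0.58 ± 0.13, adjusted p = 8.51e-04 at 24 h. NFYA, a subunit of the CCAAT-binding factor NF-Y, changed by -0.51 ± 0.10, adjusted p = 7.57e-04 at 4 h and by 0.77 ± 0.10, adjusted p = 6.46e-07 at 24 h. At 4 h NFYA read 9.11, 9.12, 9.19 and 8.99 on the DMSO arrays and 8.33, 8.63, 8.61, 8.77 and 8.61 on the 468 nM arrays, without overlap. TBC1D2B (-1.31 and 0.86), FGF9 (-1.01 and 0.71), PLPP6 (-1.28 and 0.62) and the signalling adaptor GAB2 (-0.76 and 0.55) followed the same course, as did DCAF16 (-0.76 and 0.65), a substrate receptor of CUL4 ligases, and MAF (-0.71 and 0.49). Falls that had gone by 24 h included KLHL14 (-1.85 and 0.14), SH2D7 (-1.48 and -0.08), RAB33A (-1.54 and 0.24), INHBA (-1.44 and 0.0033) and SETDB1 (-0.85 and 0.16).

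**Figure D5:**
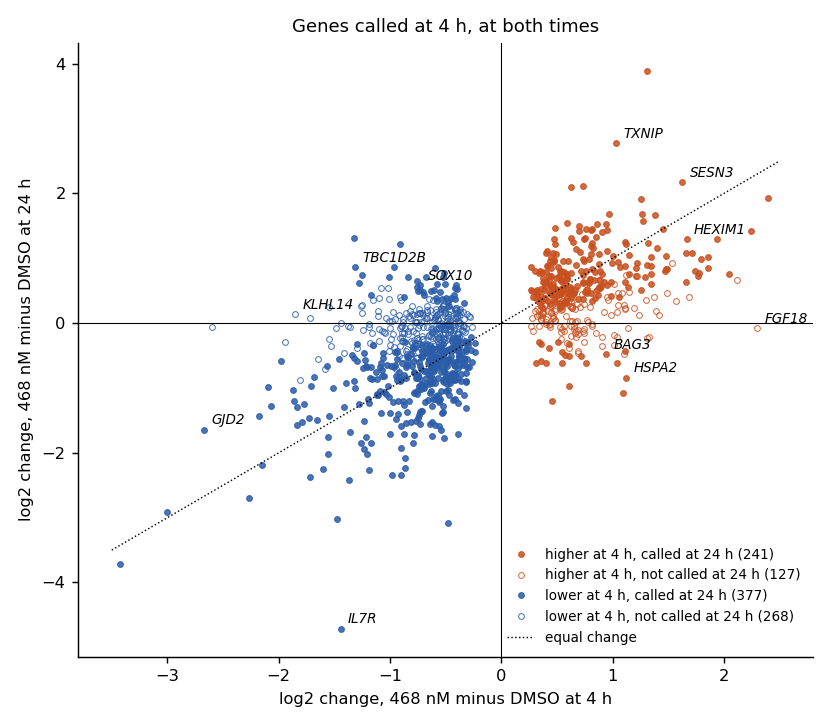
Each point is a gene called at 4 h, with its log2 change at 4 h on the x axis and at 24 h (468 nM minus DMSO at that time) on the y axis; filled points were called at 24 h as well, open points were not, and the dotted line marks equal change. Most points share their sign, while HSPA2, BAG3, SOX10 and TBC1D2B lie across the horizontal line and IL7R far below the dotted one.

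Called genes were also looked at by their order along the chromosomes, for the 9277 tested genes that the RefSeq table places. Of runs of neighbouring tested genes that were all called in one direction, 48 pairs, 5 triplets and 1 run of 4 fell. In the other direction 9 pairs, 2 triplets and 1 run of 4 rose. Falls were also more frequent among all tested genes (6.95%, against 3.96% for rises). Whether there were more runs than a random order would give was not tested. The run of 4 rises was a histone cluster, H2BC18, H3C13, H2BC20P and H2BC21. The run of 4 falls held ABHD10, TAGLN3, C3orf52 and CD200, with changes between -0.91 and -0.45; C3orf52 was not called if DMSO replicate 2 or 3, or 468 nM replicate 1, 4 or 5 was left out (adjusted p = 0.0564 to 0.133). SOX10 fell with its neighbours MIR4534 and PICK1, and IL6 with IL6-AS1 and STEAP1B-AS1, between -3.43 and -2.15. POLR2A, which encodes the largest subunit of RNA polymerase II (0.78 ± 0.18, adjusted p = 0.00419), rose beside CD68 (0.81 ± 0.17, adjusted p = 0.00144) and FXR2. CD68 was the 1 leukocyte marker above the filter, although its DMSO mean at 4 h, 4.43, lay below the filter value of 5. The homeobox pairs HMX3 and HMX2 and HOXB7 and HOXB9 each fell together, and SNHG12, a snoRNA host gene (1.05 ± 0.22, adjusted p = 0.00143), rose with SNORD99, which lies within it, and TAF12 (0.54 ± 0.11, adjusted p = 0.00167). Overlapping and adjoining genes may share probes or transcripts, so such runs are not independent observations.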

How the data were processed

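Each of the 28 arrays was deposited as linear intensity values for 53617 probe sets, which the authors summarised with RMA, per the submitters' processing notes. The sources used here do not name the RMA version or a genome build for the probe sets; the precision is limited by how few arrays there are. All tests used log2 of the deposited intensities. Of the probe sets, 23871 carry 1 gene symbol, 1842 several and 27904 none in the platform table; symbols were updated with RefSeq (GRCh38.p14), and a gene was read from its brightest probe set that names it alone (22357 genes, 663 with more than 1). Genes with a log2 value above 5 on at least 4 arrays were tested, 9285 in all. limma 3.58.1 in R 4.3.3 fitted 6 group means to all 28 arrays (22 residual and 3.84 prior degrees of freedom); p-values were Benjamini-Hochberg adjusted per comparison and called below 0.05. Given values are log2 changes ± standard error unless a mean ± SD is named, and replicate numbers only name arrays in listing order. On simulated data the fit recovered 86 of 100 changes of 1 log2 unit and 41 of 100 of 0.5. The simulated arrays had noise that was independent between arrays and no other changed genes, so these rates need not hold for the real comparison.

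The titles carry code numbers that fall into rounds. Deviations of same-round DMSO and 468 nM arrays from their group means correlated at 0.159, 0.277, 0.216 and 0.221 over genes (median -0.081 for other pairings), so the round served as a replicate block in an alternative fit. Array pairs within the 9 correlated at 0.939 to 0.956, and none were identical. The alternatives were the filter, the normalization, the arrays in the fit, the probe sets of a gene, the variance model, the block and each left-out array. The comparison, the gene lists and their members were chosen with earlier results of these data known; lists are described by counts and medians without a set test. Named genes were the 15 largest rises and falls whose arrays do not overlap and whose mean is above 5 in both groups, the 5 largest without the last condition, the 5 with the smallest adjusted p in each direction, MYC, HEXIM1, BRD2, BRD3, CCND1 and IL6, and members of the lists and neighbouring runs. Another item of the rule is not reported here. Other genes were named after their values were seen, in the comparisons of dose and time. Tables were prepared with Python 3.11.15 and pandas 2.3.3.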

Additional observations from a re-analysis of the deposited data

Results flagged for a closer look

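For 61 genes, those of the naming rule and 17 picked because their change turned between 4 h and 24 h, each group of arrays at 4 h was searched for a single array far from the others by Dixon's criterion. It found 7 cases in 122 groups, where chance alone gives about 1 in 20. They were BAG3 on DMSO replicate 4 (6.58 against a group median of 6.27); CCND1 on 468 nM replicate 2 (8.92 against a group median of 8.42); and FGF18 on 468 nM replicate 1 (4.19 against a group median of 5.54), and further KLHL14 on 468 nM replicate 5 (4.37 against a group median of 5.38), MKNK2 on 468 nM replicate 2 (8.45 against a group median of 8.15), TENT5C on 468 nM replicate 4 (7.14 against a group median of 7.67) and VDR on DMSO replicate 3 (3.87 against a group median of 4.52). Of these genes, only CCND1 lost its call when a single array was left out, and that array was DMSO replicate 1.

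The effect of 468 nM differed between 24 h and 4 h (limma interaction, adjusted p below 0.05) for 41 of these 61 genes, which include the 17 by choice. The difference is the 24 h change minus the 4 h change on the log2 scale, and it shares the 4 h arrays with the values that chose the genes. Among the 61, genes that rose at 4 h and fell at 24 h were BAG3 (-1.42), E2F7 (-1.16), HERPUD1 (-1.58), HSPA2 (-1.96), NCEH1 (-1.54), PIM1 (-0.93) and VDR (-1.65). Rises that were no longer called at 24 h were FGF18 (-2.37), H3C13 (-1.46) and PIM2 (-1.03). Rises that were smaller at 24 h and called at both times were BAIAP2 (-1.01), ERRFI1 (-0.66), GADD45A (-0.65), IER5 (-0.93), MKNK2 (-1.04), SERTAD1 (-1.28), TOB1 (-1.03) and TUFT1 (-1.0), and IL7R (-3.27) had the 1 fall that was larger at 24 h. Genes that fell at 4 h and rose at 24 h were ATXN7L3B (1.25), DCAF16 (1.42), FGF9 (1.72), GAB2 (1.31), MAF (1.19), NFYA (1.29), PLPP6 (1.90), SOX10 (1.31), TBC1D2B (2.17) and TSPYL4 (1.28). Falls that were no longer called at 24 h were DACT2 (1.17), INHBA (1.44), KLHL14 (1.99), RAB33A (1.79), SH2D7 (1.41) and ZNF827 (1.31), and falls that were smaller at 24 h were GJD2 (1.03), LMCD1 (0.79), MYC (0.53), SH3RF2 (0.37), TNFAIP3 (0.78) and ZHX2 (0.90).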

How the results depend on the processing

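Filter and scaling moved the number of calls most. With the filter at a log2 value of 7, the 4986 genes left gave 616 calls, 241 higher and 375 lower, since fewer genes were tested. With the arrays shifted by reference genes 196 were higher and 1011 lower, and the median change over all genes was -0.15 in place of -0.03. Without any filter 123 genes differed between 468 nM and 75 nM, in place of 238. The other alternatives (no filter, only the compared groups, repeated quantile normalization, mean of all probe sets, trend and robust variance, and, chosen after seeing the data, a log2 value above 5 on all 9 arrays) kept the total within 1.5 times of 1013. The fit with the replicate block by title code gave 1138 calls, 417 higher and 721 lower, and of the single calls followed it changed 1, that of PLK1 (adjusted p = 0.0618). Leaving out 1 array at a time gave 779 to 943 calls, 284 to 349 higher and 495 to 594 lower, 168 to 203 differences between doses, and 1903 to 2372 between times. Of 175 called genes that were followed one by one, which cover those given with values but not every list member or neighbour, 154 kept call and direction under every alternative that tested them, 21 lost the call in at least 1, 15 of them when 1 array was left out, and 0 reversed. Signal over background limits dim genes: values near 2.5 cannot be told from the array median, and a rise from there is uncertain in size. Of the 180 genes followed, called or not, 129 had a log2 value above 5 on all 9 arrays. The sizes given for the others may carry this uncertainty, also where their sentence does not say so.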
